A study of Mus musculus with 16 samples.

Results

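The 49 genes described here encode the core machinery of nuclear DNA replication: the origin recognition complex, the licensing factors, the MCM helicase and its activators, the polymerases, the sliding clamp and its loader, replication protein A, Okazaki fragment enzymes, ribonucleotide reductase and a few fork and timing factors. They were chosen by symbol from the 24063 genes listed in the count tables by membership of this machinery, and all 49 were found. RNA was read from 16 single mouse embryos at the two-cell stage, 8 Δm/wt and 8 f/wt. Δm/wt embryos came from Kdm1a f/f females with a Zp3-cre transgene, which is active in growing oocytes and removes the first exon of the floxed allele, so that the embryo lacks the maternal supply of the histone demethylase KDM1A (also called LSD1). f/wt embryos came from Kdm1a f/f females without Cre. All mothers were superovulated and mated to wild-type B6D2F1 males, so every embryo of both groups carried an intact paternal allele. The labels do not say which embryos shared a mother, and p-values measure the spread between embryos.

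Before a cell divides, the origin recognition complex (ORC) marks sites on DNA, and CDC6 and CDT1 load the ring-shaped MCM2-7 helicase onto them in an inactive form. The kinase DDK then helps CDC45 and the GINS complex to join, which turns the ring into an active helicase. DNA polymerase alpha with primase starts each new strand, polymerases epsilon and delta extend it behind the clamp PCNA, and replication protein A (RPA) coats the single-stranded DNA that is exposed. In mouse embryos the first cycles run largely on transcripts and proteins stored by the oocyte, and the embryo's own genome is switched on mainly during the two-cell stage.

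Counts per library lay between 4049168 and 14334244 in Δm/wt and between 3212510 and 9337451 in f/wt. The libraries f/wt 2 and f/wt 3 differed from each other far less than any other pair of their group and were counted as 1 sample, which left 8 Δm/wt and 7 f/wt samples. Levels are given as CPM, the counts of a gene scaled to a fixed library total, after TMM scaling. Kdm1a itself, at positions 136550533 to 136602723 of chromosome 4 (mm10), had 0 to 4.01 CPM in Δm/wt (median 0.695) and 0.986 to 20.2 CPM in f/wt (median 10.7), a log2 fold change of -2.99 ± 1.01 (SE, edgeR adjusted p = 0.0211). The fall of Kdm1a did not pass when libraries were scaled to the transcripts Hprt, Gapdh and Ppia (log2 fold change -2.08, adjusted p = 0.129) or in embryos 4 to 8 (-3.79, adjusted p = 0.0701). The 10 oocyte markers summed to 9776 to 21039 CPM in Δm/wt and 1746 to 3532 CPM in f/wt, and the 11 two-cell markers found in the tables to 68.9 to 1322 CPM in Δm/wt and 413 to 2418 CPM in f/wt. The 6 myeloid markers summed to 9.22 to 1930 CPM in Δm/wt, highest in Δm/wt 5, and to 0.987 to 12.3 CPM in f/wt. Cumulus and granulosa markers summed to 26.7 to 146 CPM in Δm/wt and 0.129 to 10.4 CPM in f/wt, with Fshr, Foxl2, Amh, Inhba and Ptx3 at 0 throughout, and oviduct markers to 2.67 to 694 CPM in Δm/wt and 3.10 to 67.4 CPM in f/wt. Sperm markers did not exceed 9.77 CPM in Δm/wt and 0.705 CPM in f/wt, and red blood cell markers were at 0 in Δm/wt and at most 1.95 CPM in f/wt. The part of these differences in the results below was not tested.

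Several replication genes carry sites for E2F factors, the transcription factors that switch on S-phase genes, close to their start. Promoters of 39 of the 49 genes were found in the RefSeq table (build GRCm38.p6, 250 bases before to 50 bases after the start). They were searched on both strands for 4 versions of the E2F word, TTTCCCGC, TTTCGCGC, TTTGCCGC and TTTGGCGC, which can overlap on opposite strands. A word was present in 15 of the 39 (38.5%), against 401 of 8612 tested genes with a promoter (4.66%) and 2.26% of all 32851 promoters of the same length. The word occurred in promoters of genes that went either way in Δm/wt: in 3 of 7 that rose, 5 of 9 that fell and 6 of 21 tested without a call, the 15th being a gene that was not tested. A match is a description of letters and not evidence of binding. Stretches before the start are shown for the called genes with a word there and for a pair of MCM genes without a call, 5′ to 3′ on the gene's strand, with the word in capitals.
Orc1 (fell), chr4:108579401-108579453, plus strand: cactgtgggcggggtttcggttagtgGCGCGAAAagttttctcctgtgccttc
Mcm5 (fell), chr8:75109330-75109393, plus strand: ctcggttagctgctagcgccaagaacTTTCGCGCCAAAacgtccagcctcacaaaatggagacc
Gins3 (fell), chr8:95633492-95633551, plus strand: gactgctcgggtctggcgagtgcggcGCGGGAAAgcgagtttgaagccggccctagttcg
Orc3 (rose), chr4:34614950-34615009, minus strand: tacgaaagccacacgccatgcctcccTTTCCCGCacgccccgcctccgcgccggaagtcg
Pola1 (rose), chrX:93632260-93632319, minus strand: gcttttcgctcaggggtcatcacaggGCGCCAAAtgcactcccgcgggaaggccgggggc
Mcm6 (no call), chr1:128359778-128359841, minus strand: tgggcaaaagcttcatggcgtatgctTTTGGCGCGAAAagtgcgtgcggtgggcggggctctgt
Mcm7 (no call), chr5:138172015-138172074, minus strand: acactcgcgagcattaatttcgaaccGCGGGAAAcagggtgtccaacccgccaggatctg
In Mcm5 and Mcm6 the capitals hold 2 words that overlap on opposite strands. The first base of the word lies 27 bases before the start in Orc1, 41 in both Gins3 and Orc3, 138 in Pola1, 153 in Mcm5, 110 in Mcm6 and 165 in Mcm7. Mcm6 also has a TTTGGCGC word nearer the start, 47 bases before it, in a stretch that is not shown.

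The machinery did not move as a block. Of the 47 genes that passed the filter on low counts (Pold1 and Pold2 did not), 7 rose in Δm/wt: Orc3, Orc5, Pola1, Pold3, Rfc5, Rpa3 and Timeless. A further 11 fell: Orc1, Mcm3, Mcm5, Gins3, Prim1, Pole, Rpa2, Lig1, Rrm1, Wdhd1 and Rif1. The other 29 did not pass the threshold (edgeR quasi-likelihood test, adjusted p under 0.05 over all 11344 genes tested). Among all genes tested 21.9% rose, 22.8% fell and 44.7% did either in Δm/wt, so the 14.9% of replication genes that rose lay below and the 23.4% that fell near these shares. The median log2 fold change of the 47 genes was -0.34, against 0.04 over all genes tested, and the median absolute change was 1.03, against 1.60. These medians were not matched for level, which had a median of 77.3 CPM in the 47 genes and 24.4 CPM in all genes tested. Every embryo was labelled as two-cell. In other embryos, the paper reports a delayed S phase in Δm/wt at the two-cell stage. Some of those Δm/wt embryos took up EdU, a thymidine analog that marks new DNA, and others did not, while no control did. Whether the sequenced groups differed in cell-cycle position, and whether that bears on these levels, was not tested. Levels are shares of a library, so less RNA of a gene per cell and more RNA of other genes cannot be told apart.

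**Figure D1:**
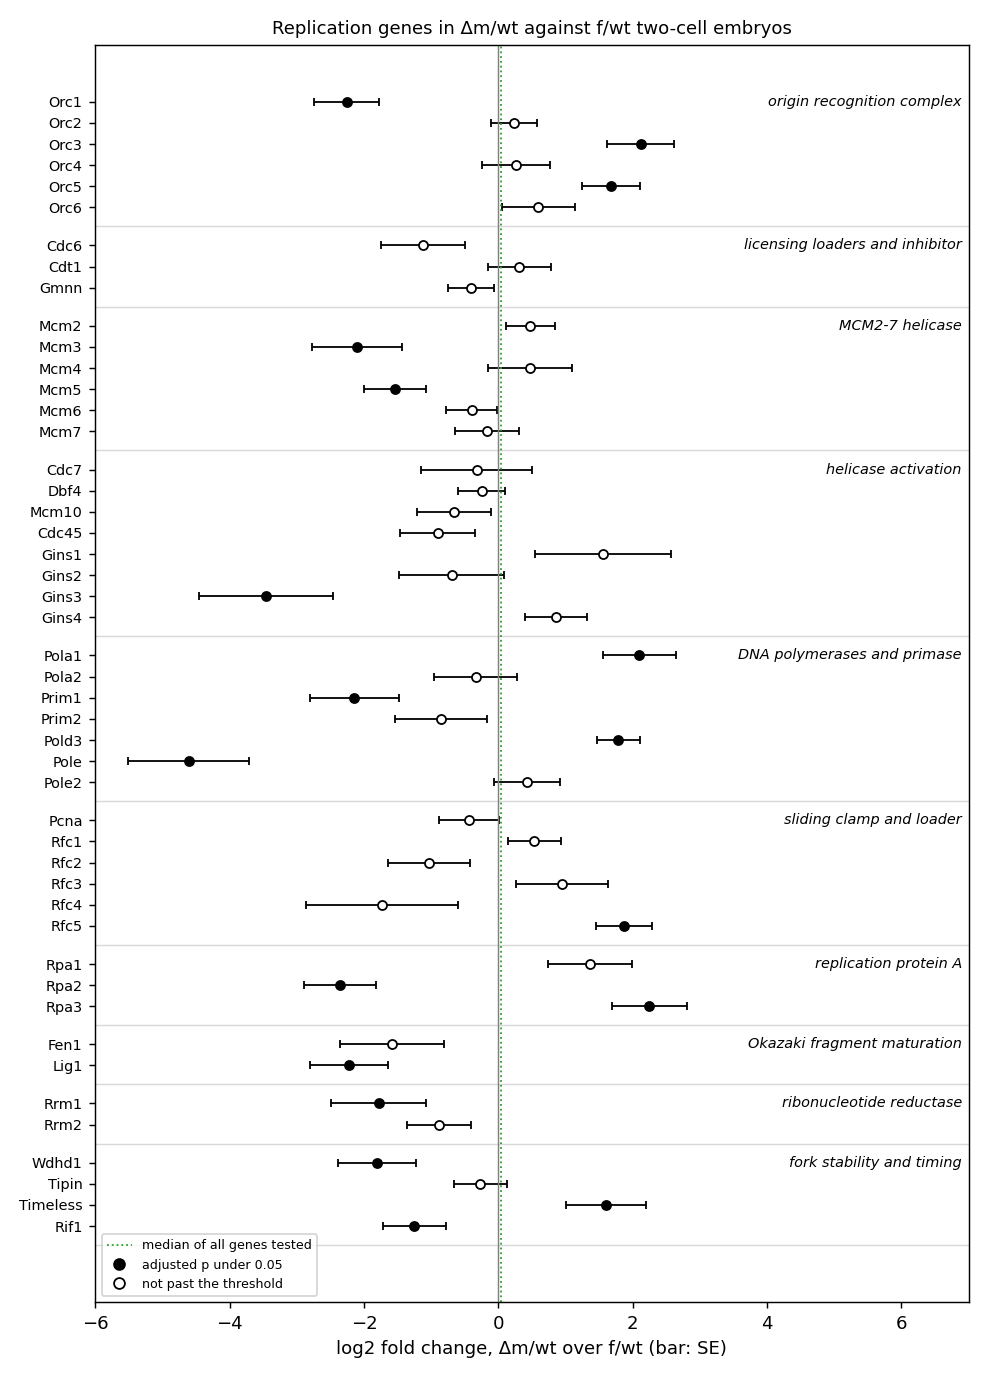
Log2 fold change (Δm/wt over f/wt) of the 47 tested replication genes, grouped by role, with the standard error as a bar. Filled points passed an adjusted p of 0.05 (7 rose, 11 fell), open points did not, and the dotted line is the median of all genes tested (0.04).

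The split between the directions depended on how libraries were scaled. Against Hprt, Gapdh and Ppia, the reference transcripts used in the study's qPCR, all genes tested had a median of 0.74 on the log2 scale, in place of 0.04 with TMM. With that scaling 11 of the 47 genes rose and 3 fell, while 31.2% of all genes rose and 14.1% fell. With library totals 6 rose and 12 fell, against 16.7% and 27.5% of all genes. DESeq2 called 8 genes higher and 12 lower, against 25.5% and 26.8% of all genes, and limma-voom 7 and 13, against 25.6% and 26.4%. In embryos 4 to 8 of each group, a separate set in the study's table of read numbers, 5 rose and 6 fell, against 13.5% and 15.4% of all genes. Genes that rose under all 4 scalings tried were Orc3, Orc5, Pola1, Pold3, Rfc5 and Rpa3, and those that fell under all 4 were Orc1, Gins3 and Pole. The fall of Mcm3, Mcm5, Prim1, Rpa2, Lig1, Rrm1, Wdhd1 and Rif1 did not pass under the reference-gene scaling, and the rise of Timeless did not pass with library totals or with no filter on low counts. None of the 18 called genes changed sign under any of the 25 alternatives.

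**Figure D2:**
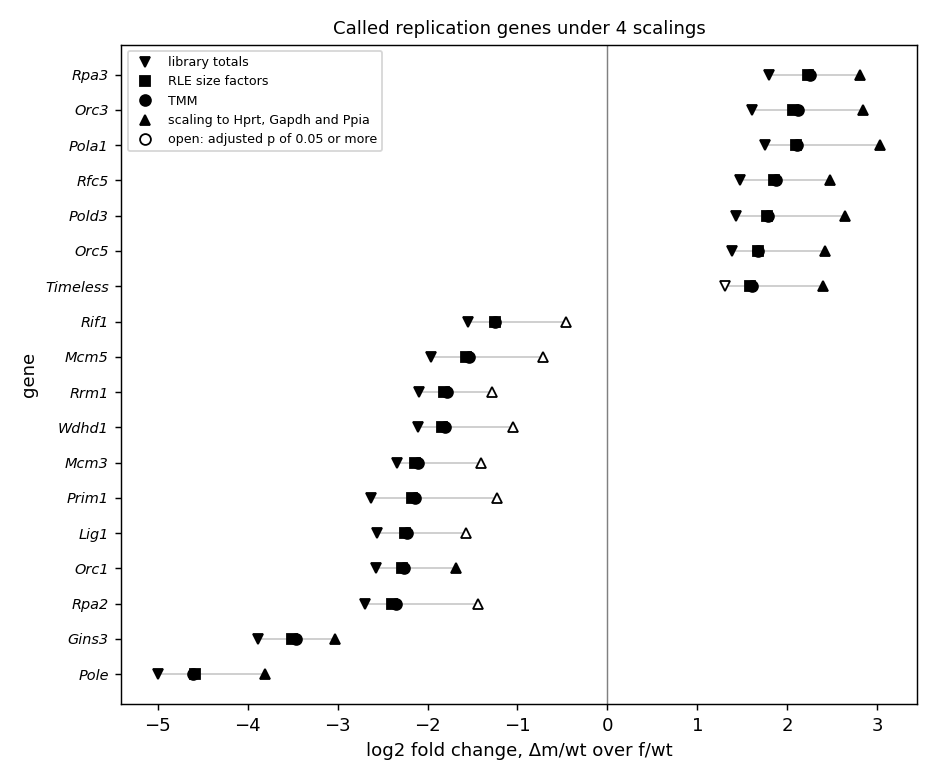
Log2 fold change (Δm/wt over f/wt) of the 18 called replication genes under library totals, RLE size factors, TMM and scaling to Hprt, Gapdh and Ppia. Filled symbols passed an adjusted p of 0.05. All 18 stayed on 1 side of 0, and 9 passed under every one of these 4 scalings.

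Subunits of ORC, which binds replication origins as a complex of 6 proteins, went opposite ways. Orc1, an ATP-binding subunit, had 9.41 to 68.4 CPM in Δm/wt (median 19.3) and 56.8 to 205 CPM in f/wt (median 141). It lay below every f/wt sample in 7 of 8 Δm/wt embryos, and fell with a log2 fold change of -2.26 ± 0.48 (SE, edgeR adjusted p = 8.53e-04). Orc3, a core subunit that holds ORC together, had 30.2 to 255 CPM in Δm/wt (median 125) and 10.3 to 59.4 CPM in f/wt (median 22.6). It lay above every f/wt sample in 6 of 8 Δm/wt embryos and rose by 2.12 ± 0.50 on the log2 scale (edgeR adjusted p = 0.00212). Orc5, an ATP-binding core subunit, had 163 to 476 CPM in Δm/wt (median 296) and 33.4 to 254 CPM in f/wt (median 64.2), with f/wt 8 alone among the Δm/wt values. It rose by 1.68 ± 0.44 (edgeR adjusted p = 0.00417), a call that did not pass in embryos 4 to 8.

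The other 3 ORC subunits did not pass the threshold. Orc2 had 106 to 291 CPM in Δm/wt (median 122) and 104 to 193 CPM in f/wt (median 130), and 29.8% of its exon bases overlap Nif3l1 on the other strand, so their reads could not be separated if the counting ignored strand. Orc6 had 6.61 to 371 CPM in Δm/wt (median 190) and 53.2 to 136 CPM in f/wt (median 125). The Δm/wt embryos lay on both sides of the f/wt range for this gene, 5 above it and 2 below it. The log2 fold changes were 0.23 ± 0.34 for Orc2, 0.27 ± 0.51 for Orc4 and 0.60 ± 0.54 for Orc6 (SE, edgeR adjusted p = 0.602, 0.688 and 0.380).

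Orc5 and Orc1 counts were also set against each other within each library, a pair chosen after their changes were seen and given without a test. The pair's log2 ratio, Orc5 over Orc1, was 2.32 to 4.51 in Δm/wt (median 3.61) and -2.52 to 0.85 in f/wt (median -0.68), so that Orc5 counts exceeded Orc1 counts in every Δm/wt embryo. A ratio within a library does not depend on its scaling.

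Among the licensing factors, which load the helicase once per cycle, none of the 3 passed in edgeR, where none had an unadjusted p under 0.05 either. DESeq2 also called none, and limma-voom called Cdc6 as lower. Gmnn, whose protein geminin binds and blocks CDT1, had 84.4 to 487 CPM in Δm/wt (median 318) and 287 to 546 CPM in f/wt (median 478), and 7 of 8 Δm/wt embryos were below the f/wt median. Cdt1, the loader that geminin blocks, had 68.6 to 531 CPM in Δm/wt (median 130) and 75.2 to 350 CPM in f/wt (median 162). The log2 fold changes were -1.12 ± 0.62 for Cdc6, 0.31 ± 0.47 for Cdt1 and -0.41 ± 0.34 for Gmnn (SE, edgeR adjusted p = 0.145, 0.605 and 0.332). Within libraries the log2 ratio of Cdt1 to Gmnn was -1.79 to 0.38 in Δm/wt (median -0.79) and -2.74 to -0.17 in f/wt (median -1.34), a difference of 0.67 (exact two-sided permutation p = 0.200, adjusted over 6 pairs 0.299).

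Of the 6 subunits of the MCM2-7 ring, Mcm3 and Mcm5 fell and the other 4 did not pass the threshold. Mcm3 had 0.876 to 67.0 CPM in Δm/wt (median 17.7) and 37.7 to 162 CPM in f/wt (median 79.0), with 7 of 8 Δm/wt embryos below the f/wt range. Mcm5, which forms the gate of the ring with Mcm2, had 25.7 to 117 CPM in Δm/wt (median 38.0) and 51.7 to 313 CPM in f/wt (median 123), with 6 of 8 Δm/wt embryos below the f/wt range. Mcm3 fell with a log2 fold change of -2.10 ± 0.67 (edgeR adjusted p = 0.0154) and Mcm5 with -1.54 ± 0.47 (adjusted p = 0.0111). Mcm2, the partner of Mcm5 at the gate, had 189 to 578 CPM in Δm/wt (median 337) and 113 to 619 CPM in f/wt (median 172). All 8 Δm/wt embryos were above the f/wt median for Mcm2, yet their range lay within that of f/wt and the log2 fold change of 0.47 ± 0.37 did not pass (adjusted p = 0.300). Mcm6 had 56.0 to 453 CPM in Δm/wt (median 228) and 192 to 434 CPM in f/wt (median 316). The log2 fold changes of the remaining subunits were 0.47 ± 0.63 for Mcm4, -0.39 ± 0.38 for Mcm6 and -0.17 ± 0.48 for Mcm7 (SE, edgeR adjusted p = 0.560, 0.409 and 0.795).

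**Figure D3:**
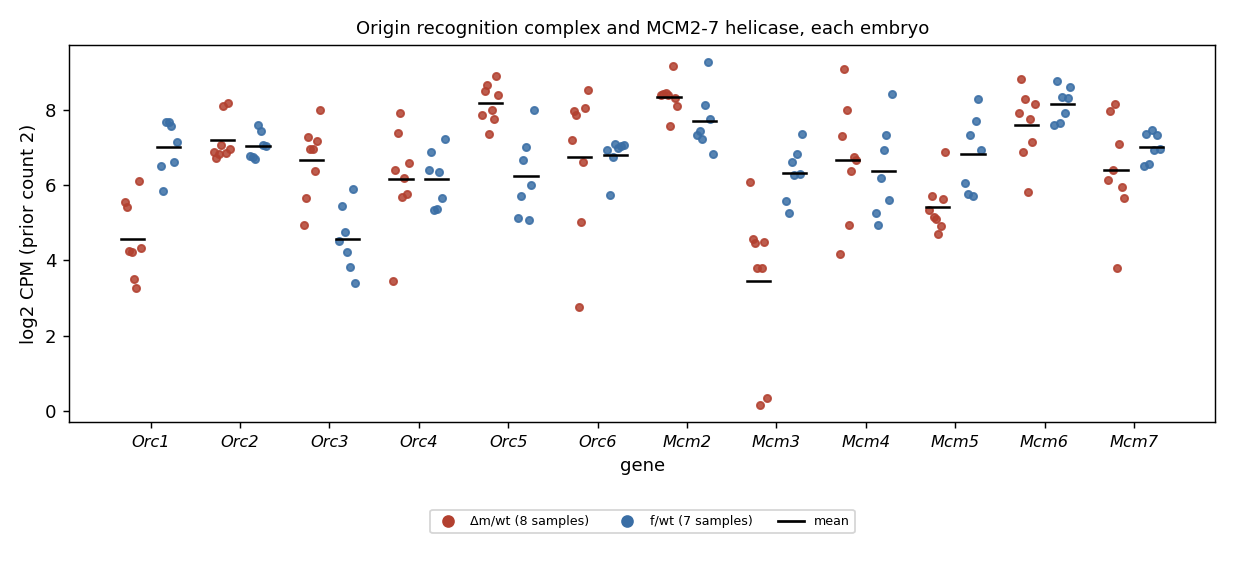
Log2 CPM (prior count 2) of the 6 ORC and 6 MCM2-7 genes in each sample, with Δm/wt (8 samples) left of f/wt (7 samples, one the sum of f/wt 2 and 3) and the group mean as a black line. Orc1, Mcm3 and Mcm5 lie lower and Orc3 and Orc5 higher in Δm/wt, while the other 7 genes did not pass the threshold.

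Of the 8 genes that turn the loaded ring into a working helicase, 1 passed. Gins3, a subunit of the GINS complex, had 0 to 7.74 CPM in Δm/wt (median 1.37) and 0.523 to 92.7 CPM in f/wt (median 26.1). It fell with a log2 fold change of -3.46 ± 1.00 (edgeR adjusted p = 0.00818), or -2.85 without the combined library f/wt 2 and 3, which held its highest value. The sample f/wt 7, at 0.523 CPM, was as low as the Δm/wt embryos, and the fall did not pass in embryos 4 to 8. The other GINS genes did not pass, with log2 fold changes of 1.56 ± 1.01 for Gins1, -0.70 ± 0.78 for Gins2 and 0.86 ± 0.46 for Gins4 (SE, edgeR adjusted p = 0.213, 0.483 and 0.131). Gins2 shares 67.3% of its exon bases with Gse1 on the opposite strand, and its count is uncertain for that reason.

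CDC7 is the kinase subunit of DDK and DBF4 is the partner that activates it. Dbf4 had 233 to 798 CPM in Δm/wt (median 371) and 279 to 894 CPM in f/wt (median 474). Cdc7 was much lower, with 0 to 57.9 CPM in Δm/wt (median 18.8) and 2.83 to 48.5 CPM in f/wt (median 27.2), although counts of different genes are not adjusted for length. Within libraries their log2 ratio, Cdc7 over Dbf4, was -11.48 to -3.35 in Δm/wt (median -4.85) and -7.06 to -3.40 in f/wt (median -4.12), a difference of -1.09 (exact two-sided permutation p = 0.396, adjusted over 6 pairs 0.475). Neither gene passed on its own, with log2 fold changes of -0.32 ± 0.82 for Cdc7 and -0.25 ± 0.35 for Dbf4 (SE, edgeR adjusted p = 0.766 and 0.582). Cdc45, which binds the MCM ring together with GINS, had 8.39 to 264 CPM in Δm/wt (median 51.9) and 42.0 to 222 CPM in f/wt (median 143), with 7 of 8 Δm/wt embryos below the f/wt median. Its log2 fold change was -0.90 ± 0.56, and that of Mcm10, which helps to activate the ring, -0.66 ± 0.55 (adjusted p = 0.190 and 0.338).

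The polymerases held the only replication genes whose groups did not overlap, Pole and Pold3, 1 in each direction. Non-overlap was found in 9.05% of all genes tested with Δm/wt lower and in 7.18% with Δm/wt higher. Pole, on chromosome 5, encodes the catalytic subunit of polymerase epsilon, which copies the leading strand. It had 0.616, 9.87, 7.38, 0.381, 0, 0.415, 0.322 and 6.24 CPM in Δm/wt 1 to 8. In f/wt it had 40.1, 84.5, 40.1, 105, 137, 58.5 and 68.5 CPM in f/wt 1, the sum of 2 and 3, and 4 to 8. The highest Δm/wt embryo was thus far below the lowest f/wt sample, and in 4 Δm/wt embryos the level rested on 3 or 4 reads and in Δm/wt 5 on none. Pole fell with a log2 fold change of -4.61 ± 0.90 (SE, edgeR adjusted p = 4.16e-04).

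Pole2, the accessory subunit that pairs with Pole in the same enzyme, had 31.9 to 110 CPM in Δm/wt (median 47.4) and 11.7 to 114 CPM in f/wt (median 41.2), with a log2 fold change of 0.43 ± 0.49 that did not pass (edgeR adjusted p = 0.494). The log2 ratio of Pole to Pole2 was -9.06 to -2.75 in Δm/wt (median -6.13) and -0.73 to 2.85 in f/wt (median 1.09). The difference was -6.64 (exact two-sided permutation p = 1.55e-04, the smallest that 6435 splits allow, adjusted over 6 pairs 9.32e-04), and every Δm/wt embryo had a lower ratio than every f/wt sample. Pole alone already separated the groups and Pole2 did not pass, so this ratio repeats the fall of Pole and is not separate support. Both genes were chosen with earlier results of these data known.

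Pold3, an accessory subunit of the lagging-strand polymerase delta on chromosome 7, went the other way. It had 342, 329, 176, 170, 270, 184, 249 and 476 CPM in Δm/wt 1 to 8. In f/wt it had 79.4, 95.8, 68.4, 69.9, 85.9, 64.9 and 92.4 CPM in f/wt 1, the sum of 2 and 3, and 4 to 8. The f/wt samples were tightly grouped and the lowest Δm/wt embryo was well above the highest of them. Pold3 rose by 1.79 ± 0.32 on the log2 scale (SE, edgeR adjusted p = 1.95e-04). The catalytic subunit gene Pold1 had at most 1.16 CPM in Δm/wt and 5.22 CPM in f/wt, and Pold2 at most 4.71 CPM in Δm/wt and 4.05 CPM in f/wt, and neither was tested. The log2 ratio of Pold3 to Pole, chosen after their values were seen and given without a test, was 4.56 to 12.1 in Δm/wt (median 8.57) and -0.67 to 0.99 in f/wt (median 0.18).

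Polymerase alpha and primase act as 1 complex to lay down the RNA-DNA primer. Pola1, the X-linked gene of its catalytic subunit, had 31.3 to 479 CPM in Δm/wt (median 169) and 11.3 to 84.2 CPM in f/wt (median 48.9), with 6 of 8 Δm/wt embryos above the f/wt range. Prim1, the catalytic primase subunit, had 2.08 to 55.9 CPM in Δm/wt (median 11.4) and 12.6 to 146 CPM in f/wt (median 73.8), with all 8 Δm/wt embryos below the f/wt median. Pola1 rose by 2.10 ± 0.54 on the log2 scale (edgeR adjusted p = 0.00379), and Prim1 fell with a log2 fold change of -2.14 ± 0.66 (adjusted p = 0.0129) that did not pass in embryos 4 to 8.

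The partner subunits Pola2 and Prim2 did not pass, with log2 fold changes of -0.34 ± 0.62 and -0.86 ± 0.69 (SE, edgeR adjusted p = 0.678 and 0.319). Prim2, which hands the primer to the polymerase, had 0.250 to 47.8 CPM in Δm/wt (median 19.98) and 16 to 53.0 CPM in f/wt (median 42.5). The log2 ratio of Prim1 to Prim2 was -4.40 to 5.82 in Δm/wt (median -0.83) and -1.07 to 3.19 in f/wt (median 0.66), a difference of -0.81 (exact two-sided permutation p = 0.568, adjusted over 6 pairs 0.568). In embryos 4 to 8 that difference turned to 0.28. For Pola1 against Prim1 the log2 ratio, chosen after the fact and not tested, was 2.56 to 7.06 in Δm/wt (median 3.63) and -2.70 to 1.96 in f/wt (median -0.42).

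**Figure D4:**
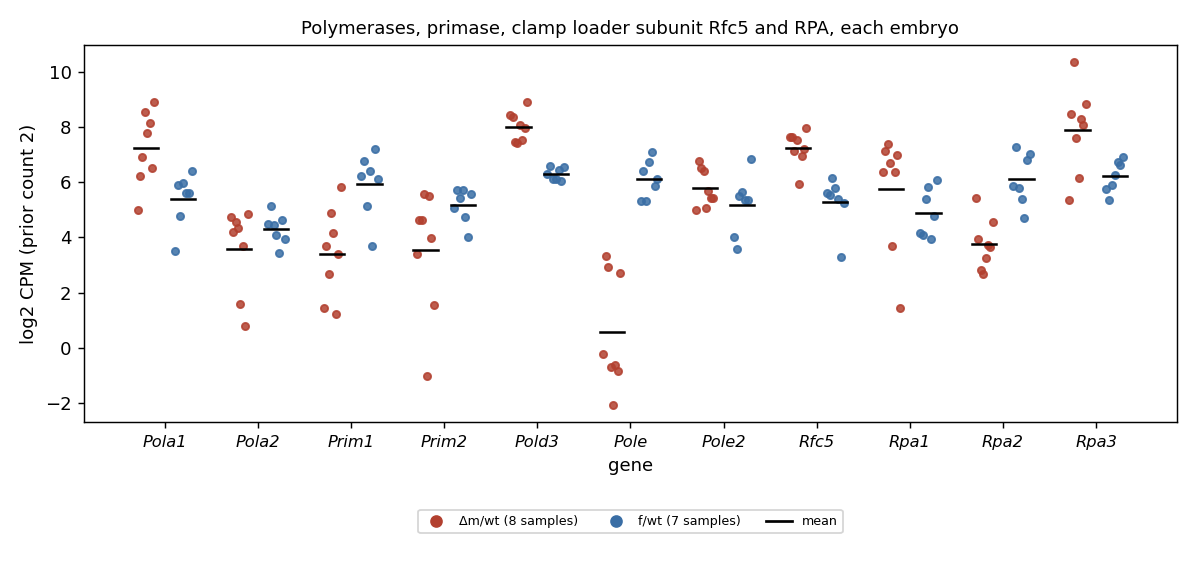
Log2 CPM (prior count 2) in each sample of the polymerase and primase genes, the clamp loader gene Rfc5 and the 3 RPA genes, with Δm/wt (8 samples) left of f/wt (7 samples, one the sum of f/wt 2 and 3) and the group mean as a black line. Pole is lower in every Δm/wt embryo than in any f/wt sample and Pold3 is higher in every one, and Rpa2 and Rpa3 differ in opposite directions.

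RPA is a trimer of a large, a middle and a small subunit, and its genes divided. Rpa2, the middle subunit, had 6.23 to 42.7 CPM in Δm/wt (median 12.6) and 25.6 to 157 CPM in f/wt (median 57.3), with 7 of 8 Δm/wt embryos below the f/wt range. Rpa3, the small subunit, had 40.8 to 1315 CPM in Δm/wt (median 290) and 41.0 to 120 CPM in f/wt (median 77.3). Of the Δm/wt embryos 6 were above the f/wt range for Rpa3, whereas Δm/wt 1 and 5 were at 40.8 and 71.4 CPM. Rpa2 fell with a log2 fold change of -2.36 ± 0.53 (edgeR adjusted p = 0.00148), and Rpa3 rose by 2.25 ± 0.56 (adjusted p = 0.00298), or by 1.62 (adjusted p = 0.00982) without Δm/wt 3, which held the value of 1315 CPM.

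Rpa1, the large subunit that binds most of the single-stranded DNA, had 2.50 to 166 CPM in Δm/wt (median 92.5) and 15.2 to 66.9 CPM in f/wt (median 27.4). The Δm/wt embryos were again on both sides, 6 above the f/wt range and 2 below it, and the log2 fold change of 1.37 ± 0.63 did not pass (edgeR adjusted p = 0.0807). The log2 ratio of Rpa3 to Rpa2, chosen after their values were seen and not tested, was -0.06 to 7.57 in Δm/wt (median 4.48) and -1.93 to 2.04 in f/wt (median -0.10).

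Pcna, the sliding clamp, was among the genes with the highest counts in both groups, with 129 to 1266 CPM in Δm/wt (median 591) and 402 to 1735 CPM in f/wt (median 681). Its log2 fold change was -0.43 ± 0.45 (edgeR adjusted p = 0.441), and reads of its processed pseudogenes may be shared with it. The loader that opens the clamp is a complex of 5 RFC proteins, of which Rfc5, a small subunit, passed. It had 60.4 to 251 CPM in Δm/wt (median 165) and 9.52 to 71.1 CPM in f/wt (median 46.3), with 7 of 8 Δm/wt embryos above the f/wt range. Rfc5 rose by 1.88 ± 0.42 on the log2 scale (adjusted p = 0.00123), and 10.7% of its exon bases overlap Wsb2 on the opposite strand. Rfc1, the large subunit, had 41.4 to 156 CPM in Δm/wt (median 95.3) and 38.8 to 81.1 CPM in f/wt (median 66.0), with 5 of 8 Δm/wt embryos above the f/wt range. The log2 fold changes of the loader genes that did not pass were 0.54 ± 0.39 for Rfc1, -1.03 ± 0.61 for Rfc2, 0.95 ± 0.68 for Rfc3 and -1.73 ± 1.13 for Rfc4 (SE, edgeR adjusted p = 0.269, 0.170, 0.261 and 0.217).

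Okazaki fragments are trimmed by the flap endonuclease FEN1 and sealed by DNA ligase I. Lig1 had 4.07 to 17.0 CPM in Δm/wt (median 12.3) and 5.28 to 98.7 CPM in f/wt (median 52.1). All 8 Δm/wt embryos were below the f/wt median, and 2 of the 7 f/wt samples were at their level. Lig1 fell with a log2 fold change of -2.23 ± 0.58 (edgeR adjusted p = 0.00425), a call that limma-voom did not make. Fen1 had 0.416 to 42.3 CPM in Δm/wt (median 8.18) and 16.5 to 102 CPM in f/wt (median 36.1), with a log2 fold change of -1.58 ± 0.77 that did not pass (adjusted p = 0.0994). An antisense transcript, Gm10143, covers 78.8% of the exon bases of Fen1, whose count is uncertain to that extent.

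Ribonucleotide reductase makes deoxyribonucleotides and is built from RRM1, the large subunit, and RRM2, the small one. Rrm1 had 0.125 to 45.9 CPM in Δm/wt (median 13.9) and 17.1 to 89.2 CPM in f/wt (median 61.2), with all 8 Δm/wt embryos below the f/wt median. It fell with a log2 fold change of -1.78 ± 0.71 (edgeR adjusted p = 0.0466), close to the threshold, and lost the call in embryos 4 to 8 (adjusted p = 0.121) and when any of 10 of the 15 samples was left out. Rrm2 had 6.26 to 213 CPM in Δm/wt (median 91.5) and 131 to 237 CPM in f/wt (median 181). Of the Δm/wt embryos 6 were below the f/wt range for Rrm2, and its log2 fold change of -0.88 ± 0.47 did not pass (adjusted p = 0.130). Between the subunits, the log2 ratio of Rrm1 to Rrm2 was -5.58 to -0.87 in Δm/wt (median -2.97) and -2.93 to -0.69 in f/wt (median -1.41), a difference of -1.32 (exact two-sided permutation p = 0.0883, adjusted over 6 pairs 0.177).

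TIMELESS and TIPIN form a complex that travels with the fork and steadies it. Timeless had 6.77 to 46.6 CPM in Δm/wt (median 33.7) and 2.40 to 19.2 CPM in f/wt (median 10.8), with 7 of 8 Δm/wt embryos above the f/wt range. It rose by 1.60 ± 0.60 on the log2 scale (edgeR adjusted p = 0.0338) and lost the call when any of 7 of the 15 samples was left out. In embryos 4 to 8 its log2 fold change was 0.88 and did not pass (adjusted p = 0.416). Tipin had 152 to 1208 CPM in Δm/wt (median 636) and 444 to 1295 CPM in f/wt (median 835), with a log2 fold change of -0.27 ± 0.39 (adjusted p = 0.594). The log2 ratio of Timeless to Tipin was -6.92 to -1.82 in Δm/wt (median -4.53) and -7.76 to -5.73 in f/wt (median -6.31). It was higher in Δm/wt by 2.16 (exact two-sided permutation p = 0.00575, adjusted over 6 pairs 0.0172), though in embryos 4 to 8 alone the difference was 0.98 (adjusted p = 0.333). Timeless was already called and Tipin did not pass, so this ratio is not separate support for the rise of Timeless. Both genes were chosen with earlier results of these data known.

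Wdhd1, which ties polymerase alpha to the helicase, had 1.04 to 45.6 CPM in Δm/wt (median 21.7) and 29.5 to 162 CPM in f/wt (median 79.2), with all 8 Δm/wt embryos below the f/wt median. Rif1, which delays late origins, had 154 to 561 CPM in Δm/wt (median 265) and 61.8 to 1941 CPM in f/wt (median 538), the widest f/wt range in CPM among the 47 genes. Wdhd1 fell with a log2 fold change of -1.81 ± 0.58 (edgeR adjusted p = 0.0157) and Rif1 with -1.25 ± 0.47 (adjusted p = 0.0352). The fall of Rif1 did not pass when any of 8 of the 15 samples was left out, and neither gene passed in embryos 4 to 8.

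**Figure D5:**
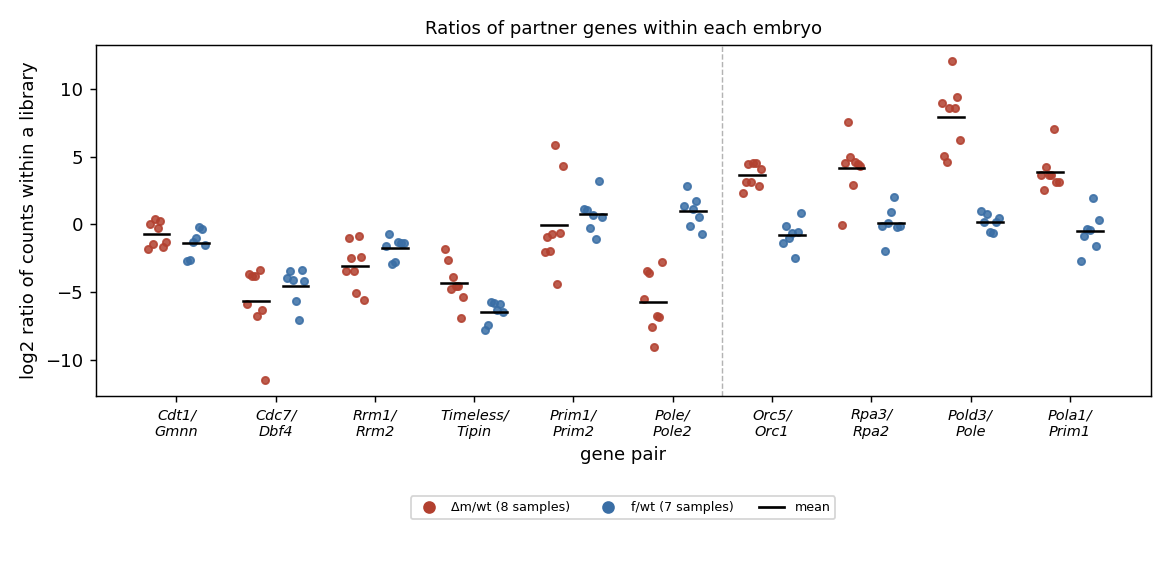
Log2 ratio of the counts of 2 genes within each library (pseudocount 0.5), with Δm/wt (8 samples) left of f/wt (7 samples) and the group mean as a black line. The 6 pairs left of the dashed line were tested, with Pole/Pole2 lower and Timeless/Tipin higher in Δm/wt, and the 4 pairs to its right were chosen after their values were seen and are shown without a test. The genes of all pairs were chosen with earlier results of these data known.

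Replication transcripts varied more among Δm/wt embryos than among f/wt samples. The SD of log2 CPM was larger in Δm/wt for 34 of the 47 genes (72.3%), against 51.7% of all genes tested, and its median was 1.34 in Δm/wt and 0.82 in f/wt, against 1.29 in Δm/wt and 1.22 in f/wt over all genes tested. The spread of the 47 genes was thus near that of all genes in Δm/wt and lower than that of all genes in f/wt. The 47 genes had a median mean level of 77.3 CPM, against 24.4 CPM for all genes tested, and the comparison was not matched for level. How much of this spread lay in single embryos was not tested. Δm/wt 5 was the lowest of its group for 17 of the 47 genes and had 13 of them under 5 CPM, and Δm/wt 8 had 11 under 5 CPM, while each f/wt sample had 1 to 4. These embryos also stood apart beyond the 47 genes. Δm/wt 8 had the fewest genes with a count of all libraries (11250), and Δm/wt 5 the highest sum of myeloid markers (1930 CPM). The 47 genes summed to 3525 to 8958 CPM in Δm/wt (median 6622), lowest in Δm/wt 5, and to 4987 to 10425 CPM in f/wt (median 6321). Without Δm/wt 5 the test called 8 genes as higher and 11 as lower, against 2330 and 2514 of all 11266 genes tested. Without Δm/wt 8 it called 8 and 10, against 2437 and 2642 of all 11319 genes tested.

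A second list held 57 further genes of replication and nucleotide supply, of which 52 were tested, 6 rose and 19 fell in Δm/wt (11.5% and 36.5%, against 21.9% and 22.8% of all genes tested). The list was made with earlier results of these data known, so these shares describe it and do not test it. With scaling to Hprt, Gapdh and Ppia 13 rose and 11 fell, against 31.2% and 14.1% of all genes, and in embryos 4 to 8 10 fell, against 15.4% of all genes. Of the 46 tested nuclear genes 6 rose and 14 fell, and of the 6 for mitochondrial DNA 5 fell. Among those that rose, Mtbp, a partner of the origin-firing factor TICRR, had 5.01 to 166 CPM in Δm/wt (median 59.0) and 0 to 7.33 CPM in f/wt (median 0.418). Samhd1, which breaks down deoxyribonucleoside triphosphates, had 52.6 to 259 CPM in Δm/wt (median 183) and 13.6 to 52.4 CPM in f/wt (median 23.9), with no overlap. Mtbp rose by 4.64 ± 1.02, Samhd1 by 2.55 ± 0.43 and Dut, whose enzyme removes dUTP, by 1.36 ± 0.35 on the log2 scale (SE, edgeR adjusted p = 0.00111, 9.97e-05 and 0.00365). Top2b, a DNA topoisomerase, rose by 2.54 ± 1.01 (adjusted p = 0.0452), or by 3.14 without f/wt 5, and the call was lost under most alternatives.

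Those that fell included Ccne1, the cyclin E1 that drives entry into S phase, with 2.63 to 120 CPM in Δm/wt (median 6.02) and 25.5 to 959 CPM in f/wt (median 485). Shmt1, an enzyme of folate metabolism that feeds thymidylate synthesis, had 0.125 to 6.77 CPM in Δm/wt (median 0.804) and 62.5 to 197 CPM in f/wt (median 97.4), with no overlap. The log2 fold changes were -5.35 ± 0.77 for Shmt1, -4.53 ± 0.85 for Ccne1 (-6.0 without Δm/wt 1), -4.42 ± 1.07 for the mitochondrial RNA polymerase gene Polrmt and -3.88 ± 0.73 for Nme2, a nucleoside diphosphate kinase (SE, edgeR adjusted p = 2.05e-05, 2.67e-04, 0.00248 and 2.84e-04). The fall of Polrmt was -3.62 without the combined library f/wt 2 and 3 and did not pass in embryos 4 to 8. That of Nme2 was -4.61 without Δm/wt 4, and 48.9% of its exon bases belong also to the overlapping gene Gm20390.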

How the data were processed

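Each embryo was lysed whole and its polyadenylated RNA copied from an oligo-dT primer, which favours reads from 3′ ends. The authors aligned reads to mm10 with TopHat2 (2.0.6), kept unique best alignments and counted them over RefSeq genes with HTSeq (0.6.1), and these raw counts were used as deposited. The strand setting was not given in the sources used here. One line per file was left empty and not used. The deposited repeat counts were not used.

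The study's filter was applied: of genes with any count, the top 60% by summed counts entered the fit. Counts went into edgeR (4.0.16, under R 4.3.3) with TMM scaling and quasi-likelihood tests, with Benjamini-Hochberg adjustment over all 11344 genes and a threshold of 0.05. The SE given with edgeR values is the absolute log2 fold change divided by the square root of the test's F value. f/wt 2 and 3 were summed because their chi-square per gene averaged 1.89, against 45.6 to 366 for other pairs of a group. DESeq2 (1.42.0) and limma-voom (limma 3.58.1) were alternatives. The edgeR and permutation steps were tested on simulated data. Ratios of partner genes used a pseudocount of 0.5 and an exact permutation test. Overlapping exons came from GENCODE M21.

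The genes and lists were chosen with earlier results of these data known. By rule, every gene of the machinery was named, and the lowest, median and highest level was given for up to 4 called and 2 uncalled genes of each role and for the genes of the pairs. Of the second list, up to 4 called genes in each direction with a mean of at least 10 CPM were named. The labels do not say whether embryos of the same number belong together, and the main fit did not pair them.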

Additional observations from a re-analysis of the deposited data

Results flagged for a closer look

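In 106 groups of log2 values (each tested gene and pair in each genotype), 11 had 1 sample set apart from the rest of its group by Dixon's 95% criterion, where chance would flag about 1 in 20, or 5.3. In Δm/wt, the low samples were Δm/wt 5 for Gmnn (log2 CPM of 6.40) and Rrm2 (2.70), Δm/wt 7 for Timeless (2.81) and Δm/wt 8 for Wdhd1 (0.35) and for the log2 ratio of Cdc7 to Dbf4 (-11.48), where no Cdc7 read was counted. Δm/wt 8 was high for Mcm5 (6.88). In f/wt, the low samples were the sum of f/wt 2 and 3 for Orc6 (5.74), f/wt 5 for Cdc45 (5.40), f/wt 6 for Cdc7 (1.62) and f/wt 7 for Rfc5 (3.29) and Rif1 (5.96).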

How the results depend on the processing

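All 18 called genes kept their direction under all 25 alternatives, and 7 kept their call under all of them: Orc1, Orc3, Pola1, Pold3, Pole, Rfc5 and Rpa3. Leaving out single samples gave 6 to 8 genes that rose and 9 to 11 that fell. Over all genes tested, 11253 to 11333 in these fits, 2152 to 2450 rose and 2307 to 2715 fell. With scaling to Hprt, Gapdh and Ppia, 11 of the 47 genes rose and 3 fell, and of the second list 13 rose and 11 fell. In embryos 4 to 8, 6 of the 47 genes fell, and 10 of the second list, with fewer samples in the fit. There the ratio of Timeless to Tipin differed by 0.98 and that of Prim1 to Prim2 reversed to 0.28. The cause of these differences was not tested.

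Among genes without a call, log2 fold changes reversed with scaling to the reference genes to 0.23 for Gmnn, 0.33 for Mcm6, 0.34 for Mcm7, 0.29 for Dbf4, 0.34 for Pola2, 0.20 for Pcna and 0.49 for Tipin. With library totals they reversed to -0.0857 for Orc2 and -0.13 for Orc4, with limma-voom to -0.0884 for Orc6, and in embryos 4 to 8 to -0.0418 for Cdt1, -0.37 for Mcm4 and -0.18 for Pole2. Without single samples they ran from -0.0722 to 0.44 for Orc4, from -0.11 to 0.89 for Mcm4 and from -0.48 to 0.0150 for Mcm7.

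The replicate block, with f/wt 2 and 3 apart, gave 6 genes that rose and 10 that fell (22.8% and 24.7% of all genes), did not call Lig1 (-1.56), Timeless (1.97) or Rif1 (-0.89), and reversed Orc4 (-0.0682) and Gins2 (0.0746). The correlations of same-numbered embryos ran from -0.0622 to 0.143, and 1 of 8 Δm/wt embryos matched its own number best. Such correlations cannot decide whether same-numbered embryos were collected or processed together, which the labels do not give. Depth limits genes near 0: Pole in Δm/wt rested on 0 to 76 reads per library, and with no molecular identifiers reads are not molecules.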
